A study of Mus musculus with 9 samples.

Results

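Bone marrow-derived macrophages (BMDMs) cultured with the osteoclast-inducing cytokine RANKL were compared at 48 h with BMDMs that received PBS, across all genes of the deposited table. The 6 libraries of these groups, 3 PBS and 3 RANKL, were taken by their treatment labels out of 9 in the series. The other 3, given RANKL with vitamins D and K, entered the model for its estimate of the spread, and otherwise served only the screen described below. Their coefficient of variation between libraries was 0.44, wider than the 0.273 of PBS and the 0.304 of RANKL. The effect of this on the calls was not tested. The cells of both groups came from the marrow of 10-week-old C57BL/6J mice and were kept with M-CSF at 20 ng/ml, and the RANKL group also had RANKL at 100 ng/ml. The labels give no sex, and the study describes pooled RNA without saying which mice or cultures make up a library. The p-values therefore measure the spread between these libraries, which may be technical.

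RANKL binds its receptor RANK on cells of the monocyte and macrophage lineage and, through TRAF adaptors, activates NF-κB and AP-1, which together with calcium signals induce the transcription factor NFATc1. M-CSF keeps the precursors alive and dividing. As the precursors become osteoclasts they fuse, form an actin ring against the bone, secrete acid and proteases, and need many mitochondria, while macrophage functions recede.

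Library totals were 65916684 to 68229647 counts over the 6 libraries, and 20021 to 20692 genes were detected. Of the osteoclast markers, 9 of 10 genes rose, against 2.35% of all genes tested. With replicate 2 left out of both groups 3 of the 10 rose, against 0.704%. The summed level of the 10 was 23.6 to 31.8 FPKM with PBS and 489 to 1022 with RANKL. FPKM is the authors' level, scaled for gene length and library size, so that different genes can be compared. Macrophage markers were present in both groups. Adgre1, which encodes F4/80, lay at 506, 456 and 493 FPKM with PBS and 502, 369.8 and 490.0 with RANKL. Cd68 was at 481, 568 and 463 FPKM with PBS and 549, 575 and 534 with RANKL, and neither gene was called. Of the 6 macrophage markers 1 fell, Csf1r, described below, against 1.26% of all genes. On the log2 scale 4 of the 6 were negative, against 9225 of 17002 genes, and the median was -0.38, against -0.04. Granule genes of neutrophils were highest in replicate 2 and lowest in replicate 3 of each group, S100a9 being at 32.7, 56.5 and 3.98 FPKM with PBS and 36, 66.9 and 3.66 with RANKL. Markers of dendritic cells, mast cells, B cells, T and NK cells, erythroid, stromal and endothelial cells summed to at most 1.51 FPKM per list and library, and megakaryocyte markers to between 3.56 and 33.2. Of all these lists of other lineages, the neutrophil collagenase Mmp8 was lower with RANKL (log2 fold change -1.48, adjusted p = 0.0125) and the NK cell gene Klrb1c was higher, at no more than 0.103 FPKM (adjusted p = 0.0484, 0.0773 with the replicate number as a block, which compares libraries of the same number). In refits without 1 library, Klrb1c lost the call each time, and Mmp8 without PBS replicate 1 and without RANKL replicate 2. Their part in the results below was not tested, and in bulk RNA fewer cells of a type and less RNA per cell cannot be told apart.

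RANKL raised 400 genes and lowered 214 of 17002 tested (edgeR quasi-likelihood test, Benjamini-Hochberg adjusted p under 0.05), which is 2.35% and 1.26% of the genes. At an unadjusted p under 0.05, 1693 genes (9.96%) were higher and 1470 (8.65%) lower, and DESeq2 called 6.71% and 4.19% of the genes it gave an adjusted p. Genes past this threshold are called raised or lowered, and both sets differed in level. Raised genes started from a median of 1.32 FPKM with PBS, against 2.70 over all genes tested. They were at 4.82 with RANKL, and 167 of them changed at least 4-fold. Lowered genes started from a median of 19.7 FPKM and were at 10.1 with RANKL, and 16 changed at least 4-fold. In 34 raised genes no PBS library had a single count. Every called gene had FPKM groups that did not overlap, so separate groups noted below for called genes add no support to a call. The median over all tested genes was -0.04 on the log2 scale, while ratios of mean FPKM ran 0.13 above the fitted log2 fold changes in the median of 10703 genes, so the fitted values are the ones compared here.

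RANKL replicate 2 had the highest level of the 3 RANKL libraries in 342 of the 400 raised genes and the lowest in 138 of the 214 lowered genes. Without PBS replicate 1, 2 or 3 the raised genes numbered 107, 199 and 96, and without RANKL replicate 1, 2 or 3 they numbered 121, 136 and 227. The lowered genes numbered 31, 77 and 30 without PBS replicates 1, 2 and 3, and 49, 57 and 89 without RANKL replicates 1, 2 and 3. With replicate 2 left out of both groups, an alternative chosen after seeing the data, 123 and 39 genes were called (0.704% and 0.223% of those tested). Leaving out any library, 78 raised and 25 lowered genes stayed called in all 6 refits.

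**Figure D1:**
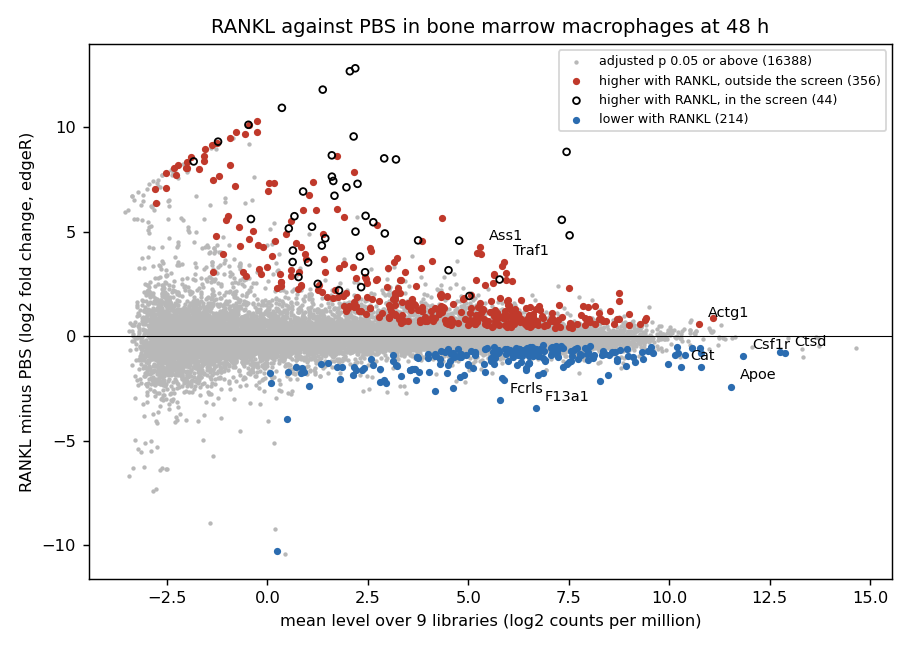
Each point is 1 of 17002 genes, with the mean level over the 9 libraries in log2 CPM (counts scaled to library size) on the x axis and the log2 fold change of RANKL over PBS on the y axis. The 356 raised genes outside the screen (red) and 44 inside it (open circles) spread to large changes at low levels, while the 214 lowered genes (blue) lie mostly at higher levels and mostly within 4-fold.

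The pro-osteoclastic screen of the study asks for genes significantly and at least 4-fold higher with RANKL than in both other groups, at an FPKM of at least 1. Applied to these files with a mean of at least 1 FPKM and an unadjusted p under 0.05, it held 53 genes, of which 44 were among the 400 raised genes. The 10 of them with the largest changes were Cyp2s1, Mst1r, A330074K22Rik, Sucnr1, Tdgf1-ps1, Mycl, Adig, Mmp9, Scin and Dcstamp, of which Adig lost its call with the replicate block (adjusted p = 0.0689). Leaving out 1 library at a time, 6 of the 10 called genes stayed under an adjusted p of 0.05 in every refit. In detail, 3, 2 and 3 lost the call without PBS replicates 1, 2 and 3, and 4, 4 and 2 without RANKL replicates 1, 2 and 3. The highest adjusted p was 0.106 (Mst1r, without PBS replicate 3). The genes described from here on are mostly the other 356 raised genes and the lowered ones. Of those described below, Mmp9, Dcstamp, Src, Ctsk, Slc9b2, Car2, Efna2, Acp5, Cttn, Oscar, Sema7a and Ocstamp are in the screen as well, so that a rise of at least 4-fold was part of how they were selected for it.

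The promoters of the changed genes were searched for short letter patterns. RefSeq promoters (GRCm38.p6), 250 bases before to 50 after the first listed start, matched 306 of the raised and 164 of the lowered genes. The letters GAGGAA, the core bound by the myeloid factor PU.1, occurred on either strand in 31.0% of raised and 41.5% of lowered promoters, against 27.2% over all tested genes and 28.3% over 27025 promoters. The AP-1 pattern TGANTCA occurred in 7.19% and 6.71%, against 5.43% of tested and 7.93% of all promoters. The NF-κB pattern, GGG and TTTCC with any 2 bases between them, was rarer, at 2.61% and 1.22% (1.69% and 1.62%). The antioxidant pattern TGACNNNGC gave 18.6% and 13.4% (14.8% and 12.5%), and CACGTG, an E-box, 8.82% and 9.76% (9.97% and 7.24%). These are counts of letters, not of bound sites. Promoters of 4 changed genes that hold such matches are printed where the genes are described, with the matches in capitals.

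Among the 20 largest rises outside the screen, several encode secreted or surface proteins that act on other cells. Vegfc, a growth factor for lymphatic vessels, had 3, 0 and 0 counts in the PBS libraries and 256, 881 and 333 with RANKL (adjusted p = 0.00217). Pgf, a placental growth factor of the same family, lay at 0.0528, 0.0795 and 0 FPKM with PBS and 2.13, 3.97 and 1.96 with RANKL (log2 fold change 5.72 ± 0.94, adjusted p = 0.0155, where ± is the standard error). Both rose from near absence, with no overlap between groups. Lox, which cross-links collagen, was at 0.233, 0.21 and 0.384 FPKM with PBS and 4.05, 4.46 and 2.4 with RANKL (log2 fold change 3.57 ± 0.38, adjusted p = 0.00228). The secreted serine protease Htra1 lay at 0.325, 0.219 and 0.166 FPKM with PBS and 3.34, 5.55 and 4.3 with RANKL (log2 fold change 4.05 ± 0.35, adjusted p = 0.00114). Cd200, the ligand of an inhibitory receptor on myeloid cells, was at 0.0961, 0.178 and 0.0708 FPKM with PBS and 2.96, 4.2 and 1.91 with RANKL (log2 fold change 4.56 ± 0.74, adjusted p = 0.0146). In these 3 genes each RANKL library was several times above every PBS library.

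The rest included enzymes, signalling adaptors and membrane proteins. Ass1 (chr2:31470207-31520672), argininosuccinate synthase of arginine synthesis, was at 0.866, 1.18 and 0.865 FPKM with PBS and 15.1, 27.4 and 19.5 with RANKL (log2 fold change 4.28 ± 0.23, adjusted p = 0.000126). Its processed copy Gm5424 (chr10:62071123-62072362) was also called, from 1.81, 1.04 and 1.17 to 11.9, 16.2 and 14.3 FPKM (log2 fold change 3.26 ± 0.26, adjusted p = 0.000637). Reads of such similar genes may have been split between them in counting, so both values are uncertain. Cav1, caveolin-1, lay at 1.24, 0.545 and 1.7 FPKM with PBS and 17.5, 23.3 and 19.2 with RANKL (log2 fold change 3.96 ± 0.38, adjusted p = 0.00167). Uchl1, a ubiquitin hydrolase best known from neurons, was at 0.665, 1.26 and 0.662 FPKM with PBS and 8.63, 17.5 and 9.03 with RANKL (log2 fold change 3.62 ± 0.34, adjusted p = 0.00133). Every RANKL library stood at 8.63 FPKM or more in these 4 genes, and every PBS library at 1.81 or less. Also raised were Chst11, a chondroitin sulfotransferase (log2 fold change 4.21, adjusted p = 0.00018), the ATP-gated channel gene P2rx5 (log2 fold change 3.69, adjusted p = 0.0086), the Nogo receptor gene Rtn4r (log2 fold change 5.51, adjusted p = 0.0244) and Cpe, carboxypeptidase E (log2 fold change 3.33, adjusted p = 0.00613). Lims2 had 4, 0 and 0 counts with PBS (log2 fold change 7.38, adjusted p = 0.00341). Nkain1 (log2 fold change 6.03, adjusted p = 0.0237), Ndrg4 (log2 fold change 3.72, adjusted p = 0.00449) and Tmem158 (log2 fold change 3.69, adjusted p = 0.023) were raised too, as were Myc, Traf1 and Jdp2, which are given with the transcription factors. With single libraries left out, 13 of the 19 called genes among the largest rises kept the call in all refits. Counted by library, 5, 4 and 4 lost the call without PBS replicates 1, 2 and 3, and 4, 6 and 1 without RANKL replicates 1, 2 and 3. The highest adjusted p reached 0.108 (Myc, without PBS replicate 3).

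**Figure D2:**
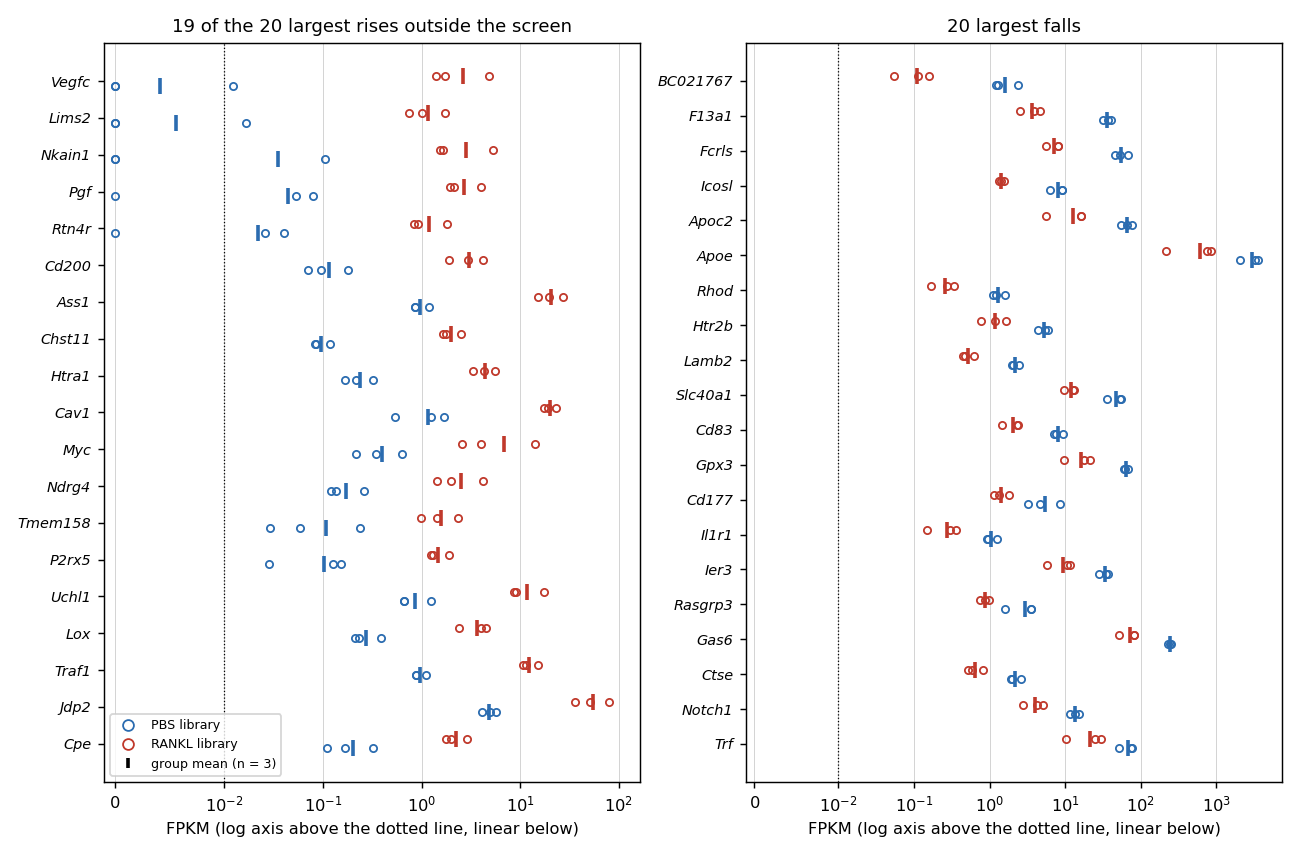
FPKM of 19 of the 20 largest rises outside the screen (left) and the 20 largest falls (right) in each PBS (blue) and RANKL (red) library, with the group mean as a bar, on an axis that is logarithmic above 0.01 and linear below. No gene has overlapping groups, which the rule for naming required, and most rises start under 1 FPKM while Apoe falls from 2074 FPKM or more.

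The most abundant raised genes changed less on the log2 scale, from high levels. Ifi30, a thiol reductase of antigen processing, was at 140.1, 182 and 122 FPKM with PBS and 441, 431 and 407 with RANKL (log2 fold change 1.41 ± 0.24, adjusted p = 0.0186). Actg1, cytoplasmic γ-actin, was at 446, 399 and 442 FPKM with PBS and 716, 731 and 678 with RANKL (log2 fold change 0.60 ± 0.11, adjusted p = 0.0199). The intermediate filament gene Vim was at 247, 299.8 and 204 FPKM with PBS and 500.1, 565 and 456 with RANKL (log2 fold change 0.89 ± 0.15, adjusted p = 0.0148). Groups were separate in all 3. Cstb, an inhibitor of cysteine cathepsins, rose as well (log2 fold change 0.81, adjusted p = 0.0371), as did Sh3bgrl3 (log2 fold change 1.1, adjusted p = 0.0173). In refits without 1 library, none of the 5 called genes passed each time. By library, 5, 1 and 5 lost the call without PBS replicates 1, 2 and 3, and 5, 5 and 3 without RANKL replicates 1, 2 and 3. The adjusted p rose to at most 0.137 (Cstb, without PBS replicate 3).

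Of the resorption machinery, 8 of 16 genes rose and none fell, and the list median was 0.96 against -0.04 over all genes tested, of which 2.35% rose and 1.26% fell. Car2, carbonic anhydrase 2, which supplies protons, was at 0.0891, 0.198 and 0.13 FPKM with PBS and 6.81, 11.4 and 3.25 with RANKL (log2 fold change 5.45 ± 0.57, adjusted p = 0.00206). Slc9b2, a sodium/proton exchanger, was at 0.131, 0.401 and 0.153 FPKM with PBS and 5.4, 8.57 and 4.44 with RANKL (log2 fold change 4.58 ± 0.46, adjusted p = 0.00181). Atp6v0d2, a proton pump subunit enriched in osteoclasts, was at 3.56, 4.4 and 2.96 FPKM with PBS and 31.3, 45.1 and 22.3 with RANKL (log2 fold change 3.04 ± 0.44, adjusted p = 0.0095). These 3 started low, and their groups were far apart. Other genes of the acid machinery were already well expressed with PBS and were not called. The pump subunit gene Atp6v1b2 was at 72.6, 81.8 and 67.3 FPKM with PBS and 110.5, 129 and 91.2 with RANKL (log2 fold change 0.45, adjusted p = 0.0931), and Atp6v1c1, of the same pump, at 24.4, 30.6 and 23.7 FPKM with PBS and 35.5, 43 and 33.1 with RANKL (log2 fold change 0.38, adjusted p = 0.514). Both had a higher FPKM in every RANKL library than in any PBS library. The subunit gene Tcirg1 was at 149, 137 and 130.1 FPKM with PBS and 146, 139 and 136 with RANKL (log2 fold change -0.11, adjusted p = 0.68), and the chloride transporter gene Clcn7 at 55.9, 56.7 and 52.5 FPKM with PBS and 56.9, 59.1 and 53.5 with RANKL (log2 fold change -0.09, adjusted p = 0.848). Calcr, the calcitonin receptor, had no count with PBS and was at 0.409, 0.696 and 0.102 FPKM with RANKL, at least 39.1-fold higher against a floor of 3 counts per library (adjusted p = 0.035, 0.056 with the replicate block). Mmp14, a membrane collagenase, was called as well (log2 fold change 1.47, adjusted p = 0.0473, 0.0631 with the block). Mmp9, Ctsk and Acp5 were the remaining called members, and with the block 6 genes were called, where 3.16% of all genes were raised and 1.69% lowered.

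In the fusion list 4 of 13 tested genes rose and none fell (median 0.32), against 2.35% and 1.26% of all genes. Dcstamp and Ocstamp, the transmembrane proteins required for osteoclast fusion, went from at most 0.047 FPKM to 6.23, 12.7 and 3.86 (adjusted p = 0.00853) and 3.4, 5.82 and 1.74 (adjusted p = 0.018). Cdh1, E-cadherin, passed the test at no more than 0.104 FPKM, and Atp6v0d2 belongs to this list too. The tetraspanin gene Cd81 was lower in every RANKL library (67.1, 55.9 and 70.2 FPKM with PBS and 40.4, 42.3 and 41.9 with RANKL) but missed the threshold (log2 fold change -0.76, adjusted p = 0.0504). The ITAM costimulation list (median 0.02) had 2 raised genes of 15, against 2.35% of all genes, and 1 with the block, against 3.16%. They were Oscar (6 counts or fewer in each PBS library, adjusted p = 0.011) and Siglec15 (0.532, 1.55 and 0.758 FPKM with RANKL, listed at 0 with PBS, adjusted p = 0.0244, 0.0711 with the block). The adaptors through which these receptors signal were not called, Tyrobp lying at 963, 919 and 975 FPKM with PBS and 906, 662 and 842 with RANKL (log2 fold change -0.36, adjusted p = 0.278) and Fcer1g at 446, 446 and 432 FPKM with PBS and 380.0, 319 and 358 with RANKL (log2 fold change -0.44, adjusted p = 0.0646). Across the refits that dropped a library, 6 of the 13 called genes of the resorption, fusion and costimulation lists held the threshold throughout. Among the genes, 7, 4 and 7 lost the call without PBS replicates 1, 2 and 3, and 5, 4 and 2 without RANKL replicates 1, 2 and 3. The largest adjusted p was 0.168 (Mmp14, without PBS replicate 3).

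Podosome and actin ring genes, which build the adhesive structures of the sealing zone, rose in 6 of 23 cases, and none fell (median 0.14), where 2.35% and 1.26% of all genes did. Src, the kinase needed for bone resorption, was at 0.60, 0.444 and 0.595 FPKM with PBS and 13.3, 18.9 and 10.9 with RANKL (log2 fold change 4.57 ± 0.27, adjusted p = 0.00013). Myo10, the motor of filopodia, lay at 1.19, 1.29 and 1.1 FPKM with PBS and 6.89, 9.97 and 5.87 with RANKL (log2 fold change 2.53 ± 0.18, adjusted p = 0.000339). Myo1e, a membrane-bound motor of podosomes, was at 7.72, 8.64 and 6.52 FPKM with PBS and 22.8, 29.3 and 16.7 with RANKL (log2 fold change 1.45 ± 0.22, adjusted p = 0.0105). RANKL libraries lay well above PBS libraries in all 3 genes. Cttn, cortactin, reached 0.779, 1.83 and 0.73 FPKM with RANKL (log2 fold change 3.53, adjusted p = 0.00853). Actn1, α-actinin (log2 fold change 0.77, adjusted p = 0.039), and Vcl, vinculin (log2 fold change 0.80, adjusted p = 0.0403, 0.0602 with the block), changed less. The β3 integrin gene Itgb3 was at 0.937, 1.4 and 0.726 FPKM with PBS and 2.6, 4.65 and 2.26 with RANKL without reaching the threshold (log2 fold change 1.5, adjusted p = 0.176). Dropping each library in turn, 2 of the 6 called genes remained called throughout. Here 4, 2 and 4 lost the call without PBS replicates 1, 2 and 3, and 2, 2 and 1 without RANKL replicates 1, 2 and 3. The upper end was an adjusted p of 0.165 (Actn1, without PBS replicate 3). The RefSeq promoter of Src is shown because Src had the lowest adjusted p of the list. It holds the reverse complement of the PU.1 core, which begins 108 bases before the start, in capitals.
Src (raised, chr2:157424043-157424342, plus strand): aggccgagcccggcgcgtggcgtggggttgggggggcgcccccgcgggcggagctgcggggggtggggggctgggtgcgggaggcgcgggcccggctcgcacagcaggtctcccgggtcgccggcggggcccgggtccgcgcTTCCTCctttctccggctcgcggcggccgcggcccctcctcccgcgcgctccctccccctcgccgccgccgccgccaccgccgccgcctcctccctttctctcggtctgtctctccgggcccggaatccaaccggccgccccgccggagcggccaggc

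Of 22 tested transcription factors of osteoclast differentiation, 5 rose and none fell (median 0.16), compared with 2.35% and 1.26% of all genes. Jdp2, a member of the AP-1 family, was at 4.11, 4.92 and 5.66 FPKM with PBS and 51.3, 79.1 and 36.2 with RANKL (log2 fold change 3.36 ± 0.41, adjusted p = 0.00502). Myc, a growth regulator, was at 0.217, 0.636 and 0.345 FPKM with PBS and 4.0, 14 and 2.57 with RANKL (log2 fold change 3.92 ± 0.72, adjusted p = 0.0217), with its highest value in RANKL replicate 2. Nfatc1, the master regulator of osteoclasts, was at 9.92, 9.26 and 9.19 FPKM with PBS and 18.7, 21.4 and 14.4 with RANKL (log2 fold change 0.81 ± 0.13, adjusted p = 0.0121). All 3 had separate groups. Nfkb2, which encodes a subunit of the non-canonical NF-κB pathway, was at 21.1, 15.9 and 20.5 FPKM with PBS and 36.6, 46.9 and 33.4 with RANKL (log2 fold change 0.89 ± 0.16, adjusted p = 0.0199). Ppargc1b, a coactivator of mitochondrial genes, was at 1.49, 1.2 and 1.01 FPKM with PBS and 3.91, 4.24 and 3.4 with RANKL (log2 fold change 1.51 ± 0.24, adjusted p = 0.0145). Fos, which opens the AP-1 response, was at 17.4, 27.9 and 8.12 FPKM with PBS and 64.9, 145 and 23.5 with RANKL. It was higher in each same-numbered pair, but the groups overlapped and it was not called (log2 fold change 1.98, adjusted p = 0.537). Nfkb1, Rela, Relb and Spi1 had log2 fold changes of -0.15, -0.23, 0.14 and 0.03, none of them called. The promoter of Nfkb2 is shown for its NF-κB pattern, in capitals, 11 bases before the start.
Nfkb2 (raised, chr19:46304487-46304786, plus strand): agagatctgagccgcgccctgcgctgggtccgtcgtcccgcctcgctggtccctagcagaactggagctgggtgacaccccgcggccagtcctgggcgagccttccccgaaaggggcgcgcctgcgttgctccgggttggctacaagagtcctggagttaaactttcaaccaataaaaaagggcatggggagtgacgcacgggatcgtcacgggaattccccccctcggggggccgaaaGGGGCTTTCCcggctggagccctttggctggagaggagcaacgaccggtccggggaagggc

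Upstream of these factors, 2 of 19 receptor and adaptor genes rose and 1, Csf1r, described below, fell (median -0.19), where 2.35% and 1.26% of all genes rose and fell. Traf1, an adaptor of TNF-family receptors, was at 1.12, 0.876 and 0.869 FPKM with PBS and 11.5, 15 and 10.6 with RANKL (log2 fold change 3.56 ± 0.21, adjusted p = 0.00013). Traf2, another adaptor of the family, was at 4.19, 3.69 and 4.15 FPKM with PBS and 6.52, 8.04 and 6.44 with RANKL (log2 fold change 0.67 ± 0.15, adjusted p = 0.0427). Traf6, the main adaptor of RANK, lay lower in each RANKL library, at 8.12, 7.97 and 7.89 FPKM with PBS and 5.8, 6.44 and 5.97 with RANKL, without a call (log2 fold change -0.52, adjusted p = 0.174). The RANK gene Tnfrsf11a was at 8.04, 7.72 and 6.36 FPKM with PBS and 14.8, 20.3 and 11.5 with RANKL (log2 fold change 0.94, adjusted p = 0.20). The list of NF-κB feedback inhibitors is mixed, as it also holds the subunit gene Relb. None of its 12 genes was called by edgeR (median 0.12). At an unadjusted p under 0.05, 1 was higher and 1 lower, against 9.96% and 8.65% of all genes. DESeq2 called 1 and 1, against 6.71% and 4.19%. Nfkbia was at 45.9, 45.7 and 49.7 FPKM with PBS and 64.1, 94.5 and 52.1 with RANKL. Among 15 repressors of osteoclast formation (median -0.24), Bcl6 was the 1 that fell, against 1.26% of all genes, from 11.5, 11 and 12.6 to 5.97, 5.81 and 7.24 FPKM (log2 fold change -1.0 ± 0.14, adjusted p = 0.00779). Irf8 was below PBS in every RANKL library (35.1, 29.4 and 30.5 FPKM with PBS and 20.7, 12.9 and 20.1 with RANKL), with an adjusted p of 0.056 that became 0.0131 with the replicate block. Leaving out 1 library at a time, 3 of the 8 called genes among factors, adaptors and repressors, leaving aside Csf1r, stayed under an adjusted p of 0.05 in every refit. In detail, 4, 4 and 5 lost the call without PBS replicates 1, 2 and 3, and 5, 4 and 1 without RANKL replicates 1, 2 and 3. The highest adjusted p was 0.141 (Traf2, without RANKL replicate 2).

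Of 27 genes of oxidative phosphorylation, 13 rose and none fell against 2.35% and 1.26% of all genes, all had a positive log2 fold change (0.06 to 1.24), and the median was 0.51. DESeq2 called 20 of the 27 higher and none lower, against 6.71% and 4.19% of all genes. In counts scaled to library size, 25 of the 27 had all RANKL libraries above all PBS libraries, against 15.7% of all tested genes. Called genes came from each complex of the chain. At complex II, Sdha was at 52.2, 52.6 and 48 FPKM with PBS and 79.7, 91.1 and 76 with RANKL (log2 fold change 0.56 ± 0.09, adjusted p = 0.0139). In complex III, Cyc1 was at 19.3, 20 and 19.1 FPKM with PBS and 39.7, 50.2 and 33.6 with RANKL (log2 fold change 0.95 ± 0.19, adjusted p = 0.0292). The electron carrier gene Cycs lay at 7.71, 6.99 and 6.74 FPKM with PBS and 15.3, 26 and 14.3 with RANKL (log2 fold change 1.24 ± 0.23, adjusted p = 0.0237). All RANKL libraries exceeded all PBS libraries in these genes. Atp5b of the ATP synthase was at 94, 99.6 and 86.1 FPKM with PBS and 174, 223 and 160.5 with RANKL (log2 fold change 0.86 ± 0.12, adjusted p = 0.00779). Complex I was represented by Ndufs1 (log2 fold change 0.58, adjusted p = 0.026) and Ndufv1 (log2 fold change 0.50, adjusted p = 0.0475), and complex IV by Cox5a (log2 fold change 0.59, adjusted p = 0.0184), Cox7a2 (log2 fold change 0.64, adjusted p = 0.0332) and Cox8a (log2 fold change 0.51, adjusted p = 0.0208). Cox4i1 changed least, at 0.06 (adjusted p = 0.797).

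Wider annotation in the deposited table, consulted after these values were seen, gave 22 raised and 0 lowered of 118 tested genes of the KEGG pathway of oxidative phosphorylation (median 0.42, 2.35% and 1.26% over all genes), with 11 negative and a range from -0.79 to 3.04. The list also holds the acid pump, and its highest value is that of Atp6v0d2. Without proton pump genes it had 21 raised and 0 lowered of 100 (median 0.47). For the citrate cycle it gave 8 raised and 1 lowered of 28 (median 0.49), Idh3a, a subunit of isocitrate dehydrogenase, being at 3.11, 3.4 and 2.72 FPKM with PBS and 8.47, 15.7 and 7.05 with RANKL (log2 fold change 1.61, adjusted p = 0.0236). Of 16 glycolysis genes 0 rose and 2 fell, where 2.35% and 1.26% of all genes did, with a median of -0.02. In scaled counts 4 of them had every RANKL library above every PBS library, against 15.7% of all genes, and 3 had every one below, against 20.0%. Eno1, enolase, was at 73.8, 76.5 and 78.5 FPKM with PBS and 127, 176 and 114 with RANKL (log2 fold change 0.73, adjusted p = 0.18). Both lowered genes act at the entry of glucose. The transporter gene Slc2a1 was at 20.7, 18.3 and 26.8 FPKM with PBS and 12.8, 14.8 and 13.8 with RANKL (log2 fold change -0.80, adjusted p = 0.0483, 0.0541 with the block). The hexokinase gene Hk2 was at 16.9, 15.3 and 18.8 FPKM with PBS and 11, 9.13 and 12.6 with RANKL (log2 fold change -0.76, adjusted p = 0.0434). With single libraries left out, 1 of the 16 called genes of the respiration and glycolysis lists together with Idh3a kept the call in all refits. Counted by library, 15, 12 and 15 lost the call without PBS replicates 1, 2 and 3, and 15, 14 and 7 without RANKL replicates 1, 2 and 3. The highest adjusted p reached 0.23 (Slc2a1, without PBS replicate 3). Without replicate 2 of both groups, 1 of the 27 respiration genes was raised, against 0.704% of all genes, at a list median of 0.52.

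**Figure D3:**
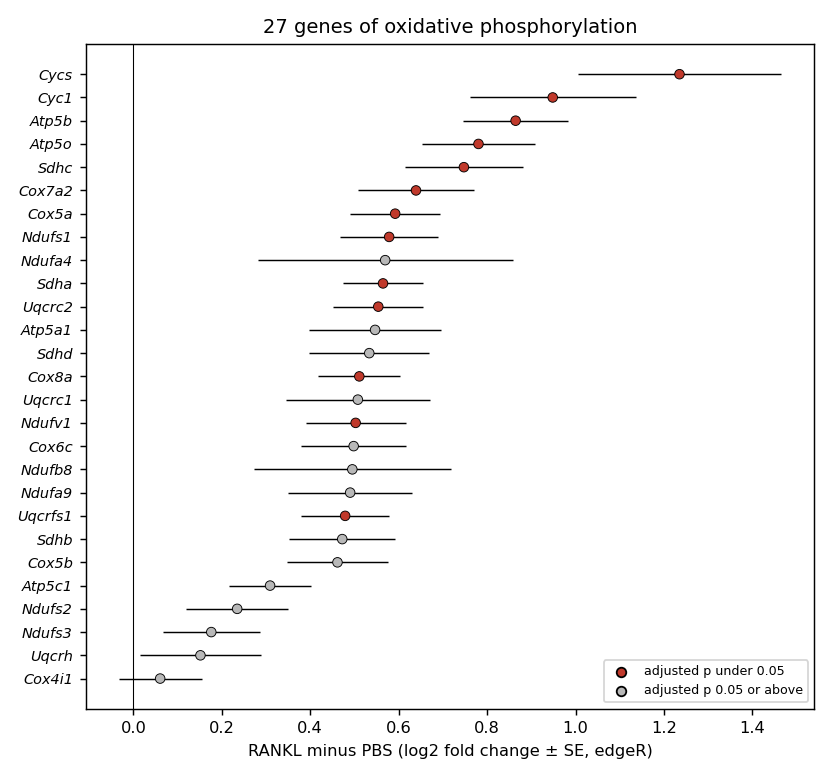
Log2 fold change of RANKL over PBS with its standard error for 27 genes of oxidative phosphorylation, ordered by size, with the 13 called genes in red. All points lie right of 0, from 0.06 for Cox4i1 to 1.24 for Cycs.

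Genes of DNA replication and mitosis had the highest medians of the 28 functional lists, 1.39 and 1.24, and every member was positive, yet edgeR called none of 24 and none of 22. The wider KEGG lists had lower medians and mixed signs. That of DNA replication had a median of 0.71, with 4 of 35 genes negative and none called by edgeR (16 higher and 1 lower at an unadjusted p under 0.05, 7 and 0 by DESeq2), and that of the cell cycle a median of 0.24, with 37 of 119 negative and 3 raised, a share near the 2.35% of all genes. With the block 5 and 13 genes of these KEGG lists were raised, against 3.16% of all genes, and DESeq2 called 17 cell cycle genes higher, against 6.71%. Replicate 2 stood apart in both groups. Rrm2, a subunit of ribonucleotide reductase, was at 0.386, 2.76 and 0.334 FPKM with PBS and 3.83, 20.4 and 3.38 with RANKL (log2 fold change 2.83, adjusted p = 0.197). Mcm2, of the replicative helicase, was at 0.722, 0.809 and 0.771 FPKM with PBS and 1.43, 6.93 and 1.37 with RANKL (log2 fold change 1.91, adjusted p = 0.0925). The proliferation marker gene Mki67 lay at 9.3, 31.5 and 8.14 FPKM with PBS and 15.5, 65.9 and 21.6 with RANKL (log2 fold change 0.93, adjusted p = 0.46). In these 3 genes the RANKL library was above the PBS library of the same number. With the replicate block, which compares within numbers, 10 replication genes and 4 mitotic genes were raised against 3.16% of all genes, Rrm2 at an adjusted p of 0.00326, Uhrf1 at 0.00659 and the mitotic kinase gene Aurka at 0.0193. At an unadjusted p under 0.05, 20 replication genes and 0 mitotic genes were higher against 9.96% of all genes, and DESeq2 called 13 and 0 against 6.71%.

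The summed level of the replication genes was 66.1, 100.4 and 65.8 FPKM with PBS and 117, 358 and 108 with RANKL, and that of the mitotic genes was 44.5, 217 and 43.8 against 117, 478 and 158. The mitotic sums overlap between groups, PBS replicate 2 lying above RANKL replicates 1 and 3, while the replication sums do not overlap. Scaled counts separated the groups in 16 of 24 replication genes and 0 of 22 mitotic genes, against 15.7% of all genes. Without replicate 2 of both groups, 1 replication gene and 9 mitotic genes were called higher against 0.704% of all genes, at medians of 0.87 and 1.67. In that refit the MHC class II list, at a median of 1.38, lay above the replication list. The neutrophil sums, at 176, 261 and 108 FPKM with PBS and 141, 188 and 53.1 with RANKL, were also highest in replicate 2 of each group. Whether they bear on these results was not tested.

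**Figure D4:**
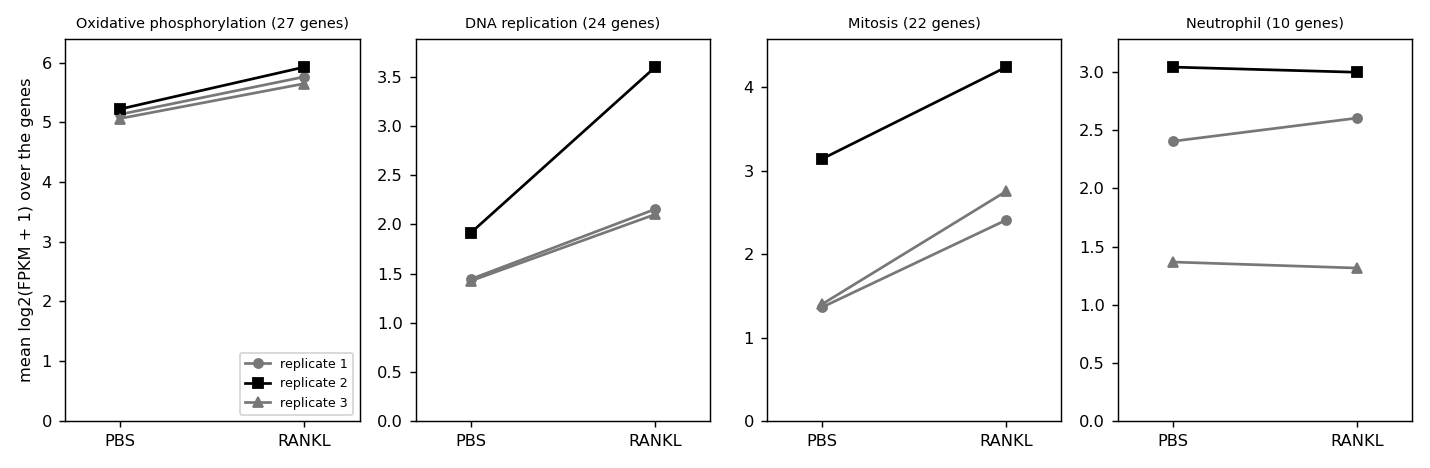
Mean log2(FPKM + 1) over the genes of 4 lists in each library, with a line joining the PBS and RANKL library of the same replicate number. Respiration, replication and mitosis genes go up in all 3 pairs and replicate 2 lies on top, most clearly for mitosis, while the neutrophil genes keep their order by replicate number.

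The 20 largest falls with at least 1 FPKM ran from a log2 fold change of -3.95 for BC021767 to -1.76 for Trf, and several are described first by their values in each library. F13a1, the A subunit of coagulation factor XIII, was at 40.8, 36.7 and 31.2 FPKM with PBS and 4.6, 2.54 and 3.81 with RANKL (log2 fold change -3.42 ± 0.44, adjusted p = 0.00603). Fcrls, an Fc receptor-like scavenger receptor, lay at 45.4, 67.1 and 52.8 FPKM with PBS and 8.0, 5.49 and 8.05 with RANKL (log2 fold change -3.05 ± 0.27, adjusted p = 0.00121). Gas6, the ligand of the TAM receptors that clear apoptotic cells, was at 247, 248 and 231 FPKM with PBS and 82.2, 51 and 80.8 with RANKL (log2 fold change -1.87 ± 0.25, adjusted p = 0.00671). For each of these the highest RANKL library was far below the lowest PBS library. Icosl, the ligand of ICOS on T cells, was at 9.2, 6.23 and 8.97 FPKM with PBS and 1.33, 1.43 and 1.54 with RANKL (log2 fold change -2.63 ± 0.29, adjusted p = 0.00305). Cd83, a surface protein of antigen-presenting cells, was at 7.62, 7.2 and 9.44 FPKM with PBS and 2.28, 1.47 and 2.36 with RANKL (log2 fold change -2.1 ± 0.35, adjusted p = 0.0159). The receptor gene Notch1 was at 13.5, 11.5 and 15 FPKM with PBS and 4.19, 2.79 and 5.13 with RANKL (log2 fold change -1.84 ± 0.24, adjusted p = 0.00628). These groups were also separated by a wide margin.

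Also among the 20 largest falls were the serotonin receptor gene Htr2b (log2 fold change -2.23, adjusted p = 0.0199), the laminin gene Lamb2 (log2 fold change -2.19, adjusted p = 0.00218) and Il1r1, the receptor of IL-1 (log2 fold change -2.06, adjusted p = 0.0497). Others were the cathepsin gene Ctse (log2 fold change -1.86, adjusted p = 0.0121), Cd177, a surface protein best known from neutrophils (log2 fold change -2.08, adjusted p = 0.0269), Ier3 (log2 fold change -1.97, adjusted p = 0.0182), Rasgrp3, an activator of Ras (log2 fold change -1.88, adjusted p = 0.0237), and the small GTPase gene Rhod (log2 fold change -2.4, adjusted p = 0.0148). BC021767, the first of them, had an adjusted p of 0.0121. A gene outside the naming rule, singled out after its values were seen, was Zfp708, of the large zinc finger family whose members resemble each other. It had 234, 161 and 45 counts with PBS and 0 in every RANKL library (adjusted p = 0.0484, 0.0898 with the block). In refits without 1 library, 7 of the 20 called genes of the largest falls passed each time. By library, 12, 7 and 11 lost the call without PBS replicates 1, 2 and 3, and 11, 9 and 6 without RANKL replicates 1, 2 and 3. The adjusted p rose to at most 0.186 (Il1r1, without PBS replicate 3). Zfp708 lost its call in each of these refits.

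Macrophage identity genes lay mostly below PBS, though few passed edgeR's test. Of 16 genes, 3 fell and none rose, 14 had a negative log2 fold change, and the median was -0.54. Over all genes 1.26% fell. DESeq2 called 6 lower and 1 higher, against 4.19% and 6.71% of all genes. At an unadjusted p under 0.05, 8 were lower and 1 higher, against 8.65% and 9.96%. With the replicate block 5 were lowered, against 1.69% of all genes, Fcgr1 (adjusted p = 0.0401) and Cebpb (adjusted p = 0.0425) being added. Csf1r, the receptor of the M-CSF in the medium of both groups, was at 1056, 832 and 1005 FPKM with PBS and 627, 412 and 594 with RANKL (log2 fold change -0.94 ± 0.21, adjusted p = 0.0484). The myeloid transcription factor gene Cebpa was at 50.3, 56.3 and 59.7 FPKM with PBS and 32.5, 25.3 and 35.5 with RANKL (log2 fold change -0.95 ± 0.16, adjusted p = 0.0173). Ms4a7 was at 76.1, 58.2 and 79.7 FPKM with PBS and 40.4, 25.8 and 44.1 with RANKL (log2 fold change -1.07 ± 0.24, adjusted p = 0.0475). In all 3, every RANKL library lay below every PBS library and replicate 2 was the lowest of the RANKL libraries. Scaled counts fell without overlap in 10 of the 16 genes, against 20.0% of all tested genes. Lyz2, the lysozyme gene with the most counts in each of the 6 libraries, was at 28239, 24181 and 27772 FPKM with PBS and 22219, 15002 and 22166 with RANKL (log2 fold change -0.55, adjusted p = 0.438).

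Receptors by which macrophages sense and take up targets are read against the 2.35% of all genes that rose and the 1.26% that fell. Of 18 Toll-like receptor and associated genes, 1 fell and none rose (median -0.42). With the block 3 were lowered, against 1.69% of all genes, and by DESeq2 3, against 4.19%. Tlr13, a sensor of bacterial ribosomal RNA, was at 61.8, 73.2 and 59.5 FPKM with PBS and 40.6, 39.5 and 34 with RANKL (log2 fold change -0.89 ± 0.20, adjusted p = 0.0475). The block added Tlr7 (adjusted p = 0.0418) and Clec7a (adjusted p = 0.0394), while Tlr4, the endotoxin receptor, was not called (log2 fold change -0.45, adjusted p = 0.294). Of 16 scavenger and alternative activation receptors 1 rose and 1 fell (median -0.25). With the block 1 rose and 2 fell, against 3.16% and 1.69% of all genes. DESeq2 called 1 and 4, against 6.71% and 4.19%. Stab1, stabilin-1, fell, at 323, 322 and 267 FPKM with PBS and 136, 105 and 120.3 with RANKL (log2 fold change -1.46 ± 0.27, adjusted p = 0.0234). Msr1, the class A scavenger receptor, rose, at 22.2, 29.1 and 24.2 FPKM with PBS and 42.7, 55.7 and 46.1 with RANKL (log2 fold change 0.81 ± 0.15, adjusted p = 0.0199). The mannose receptor gene Mrc1 was not called (log2 fold change -0.22, adjusted p = 0.628). Nor was Cd163, at 4.13, 3.87 and 4.16 FPKM with PBS and 0.787, 0.798 and 0.971 with RANKL. Among 15 Fc receptor and complement genes, 3 rose and 1 fell (median -0.48). Fcgr3, a low-affinity IgG receptor that resembles other genes of its family, was at 409, 468 and 497 FPKM with PBS and 199, 143 and 212 with RANKL (log2 fold change -1.43 ± 0.18, adjusted p = 0.00514). Complement C3 was at 49.4, 15.1 and 32.8 FPKM with PBS and 158, 109 and 182 with RANKL (log2 fold change 2.09 ± 0.41, adjusted p = 0.0283). Fcgr3 fell and C3 rose, each with no overlap between groups. Cfp, properdin, was at 86.5, 117 and 99.7 FPKM with PBS and 193, 218 and 181 with RANKL (log2 fold change 0.84 ± 0.14, adjusted p = 0.0158). Itgax, the integrin CD11c, was at 0.438, 0.755 and 0.648 FPKM with PBS and 1.82, 1.7 and 1.66 with RANKL (log2 fold change 1.37 ± 0.22, adjusted p = 0.0131). Across the refits that dropped a library, 1 of the 10 called genes of macrophage identity and of these receptor lists held the threshold throughout. Among the genes, 7, 5 and 9 lost the call without PBS replicates 1, 2 and 3, and 9, 7 and 6 without RANKL replicates 1, 2 and 3. The largest adjusted p was 0.192 (Ms4a7, without PBS replicate 3). The promoters of Fcgr3 and Stab1, both lowered, are shown with the matches in capitals. That of Fcgr3 holds the NF-κB pattern at 152 bases and the reverse complement of the PU.1 core at 6 bases before the start. That of Stab1 holds the PU.1 core at 30 bases before it.
Fcgr3 (lowered, chr1:171059354-171059653, minus strand): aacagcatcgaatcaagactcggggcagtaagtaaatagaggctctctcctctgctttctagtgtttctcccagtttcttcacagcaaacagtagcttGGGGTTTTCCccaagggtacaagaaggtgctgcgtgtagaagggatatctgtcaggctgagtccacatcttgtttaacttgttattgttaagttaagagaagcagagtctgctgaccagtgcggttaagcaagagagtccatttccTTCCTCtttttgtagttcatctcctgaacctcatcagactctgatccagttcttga
Stab1 (lowered, chr14:31168592-31168891, minus strand): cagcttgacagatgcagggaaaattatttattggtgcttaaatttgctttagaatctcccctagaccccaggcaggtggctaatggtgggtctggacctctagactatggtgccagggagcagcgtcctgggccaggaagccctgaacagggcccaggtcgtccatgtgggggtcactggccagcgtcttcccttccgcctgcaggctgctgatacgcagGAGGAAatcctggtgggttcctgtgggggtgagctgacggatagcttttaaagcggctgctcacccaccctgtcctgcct

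Over the lists of cytokines, chemokines and chemokine receptors 1 gene rose and 1 fell, where 2.35% and 1.26% of all genes did. In the list of 12 tested cytokine genes (median -0.36) 1 rose, Il1rn, the natural antagonist of IL-1, at 0.964, 0.748 and 0.654 FPKM with PBS and 6.22, 8.21 and 5.52 with RANKL (log2 fold change 2.93 ± 0.44, adjusted p = 0.0103). Tnf was at 10.2, 6.92 and 6.37 FPKM with PBS and 2.05, 8.08 and 1.63 with RANKL (log2 fold change -1.16, adjusted p = 0.509). Il1b lay at 5.22, 1.36 and 20.7 FPKM with PBS and 0.992, 0.213 and 3.4 with RANKL, a wide spread that overlapped between groups, and it was lower within each same-numbered pair (adjusted p = 0.296, 0.00597 with the block). Of 17 chemokine genes (median -0.07), Ccl6 fell, at 80.9, 83.6 and 80.8 FPKM with PBS and 44.3, 21.1 and 38.7 with RANKL (log2 fold change -1.34 ± 0.26, adjusted p = 0.0247). The monocyte attractant gene Ccl2 was at 1.1, 1.17 and 0.297 FPKM with PBS and 2.34, 11.6 and 1.28 with RANKL (log2 fold change 2.37, adjusted p = 0.373). No chemokine receptor of 13 was called by edgeR (median -0.52). At an unadjusted p under 0.05, 2 were higher and 3 lower, against 9.96% and 8.65% of all genes. DESeq2 called 1 and 2, against 6.71% and 4.19%. Ccr1, at 1.09, 4.65 and 1.47 FPKM with PBS and 10.8, 20 and 7.68 with RANKL, did pass with the block (adjusted p = 0.00806, 0.0539 without).

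Interferon-stimulated genes had a median of 0.51 over 23 genes, and none was called by edgeR. At an unadjusted p under 0.05, 5 were higher, against 9.96% of all genes, and DESeq2 called 3, against 6.71%. Irf7, their regulator, was at 5.99, 4.31 and 5.58 FPKM with PBS and 9.97, 4.42 and 12 with RANKL (log2 fold change 0.62, adjusted p = 0.412). The MHC class II list had a median of 1.09, and Ifi30 was the only called gene of 12 in edgeR's test, while 7 were higher and 1 lower at an unadjusted p under 0.05, against 9.96% and 8.65% of all genes, and DESeq2 called 4, against 6.71%. The invariant chain gene Cd74 was at 111, 73.5 and 92.1 FPKM with PBS and 393, 127 and 466 with RANKL (log2 fold change 1.73, adjusted p = 0.0762), and H2-Aa at 9.72, 9.94 and 8.71 FPKM with PBS and 35.6, 11.2 and 45.8 with RANKL (log2 fold change 1.61, adjusted p = 0.169). RANKL replicate 2 was the lowest of the RANKL libraries for both, the reverse of its place among the replication genes. Dropping each library in turn, none of the 3 called genes of these lists, Il1rn, Ccl6 and Ifi30, remained called throughout. Here 2, 1 and 3 lost the call without PBS replicates 1, 2 and 3, and 1, 1 and 2 without RANKL replicates 1, 2 and 3. The upper end was an adjusted p of 0.0966 (Ccl6, without PBS replicate 3).

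Among 15 lipid handling genes 1 rose and 3 fell (median -0.03), against 2.35% and 1.26% of all genes, and with the block 2 rose and 4 fell, against 3.16% and 1.69%. Apoe (chr7:19696109-19699188), the apolipoprotein that macrophages secrete to carry cholesterol away, was at 3267, 2074 and 3570.2 FPKM with PBS and 752, 216 and 845 with RANKL (log2 fold change -2.4 ± 0.47, adjusted p = 0.0269). Its neighbour Apoc2 (chr7:19671579-19677941), a cofactor of lipoprotein lipase, lay at 66.4, 55 and 77.6 FPKM with PBS and 16.1, 5.57 and 16.4 with RANKL (log2 fold change -2.49 ± 0.45, adjusted p = 0.0199). Both were lowest in RANKL replicate 2, with no overlap between groups. Lipa, the lysosomal acid lipase, fell, at 264, 263 and 248 FPKM with PBS and 207, 196 and 177 with RANKL (log2 fold change -0.55 ± 0.11, adjusted p = 0.0267). Nr1h3, which encodes the oxysterol receptor LXRα, rose, at 3.03, 3.22 and 3.19 FPKM with PBS and 7.71, 9.68 and 7.61 with RANKL (log2 fold change 1.27 ± 0.22, adjusted p = 0.0186). The cholesterol exporters that LXR is known to induce were not called, Abca1 having a log2 fold change of 0.22 (adjusted p = 0.577) and Abcg1 of 0.70 (adjusted p = 0.0627). Lpl, lipoprotein lipase itself, was at 23.9, 29.3 and 14.8 FPKM with PBS and 53.2, 106 and 36.4 with RANKL (adjusted p = 0.117, 0.0129 with the block). None of 21 cholesterol and fatty acid synthesis genes was called by edgeR (median -0.11), and Srebf1 stood at -0.08 (adjusted p = 0.857). At an unadjusted p under 0.05, 4 were lower, against 8.65% of all genes, and DESeq2 called 1 lower, against 4.19%. Leaving out 1 library at a time, none of the 4 called genes stayed under an adjusted p of 0.05 in every refit. In detail, 4, 2 and 4 lost the call without PBS replicates 1, 2 and 3, and 4, 2 and 1 without RANKL replicates 1, 2 and 3. The highest adjusted p was 0.137 (Lipa, without PBS replicate 1).

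Lysosomal genes fell in 4 of 20 cases and rose in none, with a median of -0.29, where 1.26% of all genes fell and 2.35% rose. The wider KEGG list of the lysosome went both ways, with 6 raised and 8 lowered of 115 genes and a median of -0.17. With the block 7 and 9 were called, against 3.16% and 1.69% of all genes. Both cathepsin genes on the list that fell were among the 5 most abundant lowered genes. Ctsd was at 3167, 3820.5 and 3524 FPKM with PBS and 2386, 1908 and 2260.4 with RANKL (log2 fold change -0.80 ± 0.15, adjusted p = 0.0255). Ctsb was at 1084, 1531 and 1052 FPKM with PBS and 842, 814 and 744 with RANKL (log2 fold change -0.73 ± 0.15, adjusted p = 0.0364). Glb1, β-galactosidase (log2 fold change -0.57, adjusted p = 0.0427, 0.0599 with the block), and Laptm5 (log2 fold change -0.51, adjusted p = 0.0484) were the others, and Lamp1 was not called (log2 fold change -0.40, adjusted p = 0.189). These falls stood beside the rise of Ctsk, the collagen-degrading cathepsin of osteoclasts (10.1, 11.4 and 7.0 FPKM with PBS and 251, 426 and 214 with RANKL, log2 fold change 4.83 ± 0.35, adjusted p = 0.00037). With single libraries left out, none of the 4 called genes of the lysosomal list kept the call in all refits. Counted by library, 4, 4 and 4 lost the call without PBS replicates 1, 2 and 3, and 4, 4 and 4 without RANKL replicates 1, 2 and 3. The highest adjusted p reached 0.187 (Laptm5, without PBS replicate 1).

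Iron and heme handling had 4 lowered and 1 raised genes of 15 (median -0.43), where 1.26% and 2.35% of all genes were, and 6 lowered with the block, against 1.69%. Slc40a1, ferroportin, the exporter of iron, was at 35.4, 52.4 and 54.6 FPKM with PBS and 13.2, 9.75 and 12.6 with RANKL (log2 fold change -2.12 ± 0.38, adjusted p = 0.0199). Slc11a1, the phagosomal metal transporter NRAMP1, lay at 204, 158 and 187 FPKM with PBS and 114, 81.6 and 101 with RANKL (log2 fold change -1.01 ± 0.18, adjusted p = 0.0199). Hmox1, which opens the heme ring, was at 215, 262 and 264 FPKM with PBS and 147, 128 and 107 with RANKL (log2 fold change -1.08 ± 0.15, adjusted p = 0.00817). All RANKL libraries were below all PBS libraries. Blvrb, biliverdin reductase B, fell too (log2 fold change -0.68, adjusted p = 0.0193). Steap3, a ferrireductase of the endosome, rose (3.93, 4.92 and 3.73 FPKM with PBS and 7.5, 10.4 and 6.23 with RANKL, log2 fold change 0.80 ± 0.17, adjusted p = 0.0388). The ferritin heavy chain gene Fth1 was lower in each RANKL library (2669.5, 2128 and 2892 FPKM with PBS and 1466, 1143 and 1588 with RANKL), with an adjusted p of 0.0985, or 0.0161 with the block, and the transferrin receptor gene Tfrc was not called (log2 fold change -0.43, adjusted p = 0.173). Trf, transferrin, was among the 20 largest falls (log2 fold change -1.76, adjusted p = 0.0484, 0.0602 with the block). In refits without 1 library, none of the 5 called genes of the list passed each time. By library, 4, 3 and 5 lost the call without PBS replicates 1, 2 and 3, and 2, 4 and 3 without RANKL replicates 1, 2 and 3. The adjusted p rose to at most 0.158 (Steap3, without PBS replicate 3).

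Of 12 tested coupling factors, by which osteoclasts act on bone-forming cells, 3 rose and 1 fell (median 0.13), where 2.35% and 1.26% of all genes did. Pdgfb, a growth factor for vessel-wall and skeletal precursors, was at 2.85, 3.28 and 3.23 FPKM with PBS and 10.8, 14.2 and 10.4 with RANKL (log2 fold change 1.79 ± 0.32, adjusted p = 0.0199). Lif had no counts with PBS and 0.458, 0.325 and 0.198 FPKM with RANKL, at least 35.4-fold higher against a floor of 3 counts per library (adjusted p = 0.00853), and C3 is given above. Igf1 fell, from 78.3, 57.8 and 68.9 to 39.4, 24.7 and 33.4 FPKM (log2 fold change -1.19 ± 0.23, adjusted p = 0.0268). Vegfa, unlike Vegfc and Pgf, was at 23.4, 12.6 and 31.6 FPKM with PBS and 10.6, 4.25 and 17.1 with RANKL (log2 fold change -1.18, adjusted p = 0.347, 0.0261 with the block). Sphk1, the kinase that forms sphingosine 1-phosphate, was not called (log2 fold change 2.67, adjusted p = 0.319).

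Of 16 axon guidance and neuronal-type genes 2 rose and 2 fell (median 0.09), against the same 2.35% and 1.26%. Sema7a, a membrane-anchored semaphorin, went from 0.0154, 0.0146 and 0 to 1.45, 2.13 and 0.94 FPKM (log2 fold change 6.92 ± 1.19, adjusted p = 0.0179). Efna2, ephrin-A2, was at 0.386, 0.353 and 0.392 FPKM with PBS and 1.81, 3.23 and 2.1 with RANKL (log2 fold change 2.51 ± 0.30, adjusted p = 0.00442). Nrp1, neuropilin-1, a coreceptor of semaphorins and VEGF, was at 23.9, 22.9 and 20.8 FPKM with PBS and 11.7, 11.9 and 10.2 with RANKL (log2 fold change -1.13 ± 0.11, adjusted p = 0.00181). The netrin receptor gene Unc5b was at 0.534, 0.475 and 0.439 FPKM with PBS and 0.18, 0.233 and 0.207 with RANKL (log2 fold change -1.34 ± 0.23, adjusted p = 0.0166). Ntn1, netrin-1, had its highest value at 0.196 FPKM (log2 fold change 1.79, adjusted p = 0.334). In the list of 18 calcium and calcineurin genes (median -0.12), against the same shares, Cacnb3 fell (log2 fold change -1.5, adjusted p = 0.0403) and Calcr rose, and the calcineurin gene Ppp3ca had a log2 fold change of -0.13 (adjusted p = 0.658). Across the refits that dropped a library, 3 of the 10 called genes of the coupling, guidance and calcium lists held the threshold throughout. Among the genes, 6, 6 and 7 lost the call without PBS replicates 1, 2 and 3, and 7, 7 and 4 without RANKL replicates 1, 2 and 3. The largest adjusted p was 0.16 (Cacnb3, without PBS replicate 1).

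**Figure D5:**
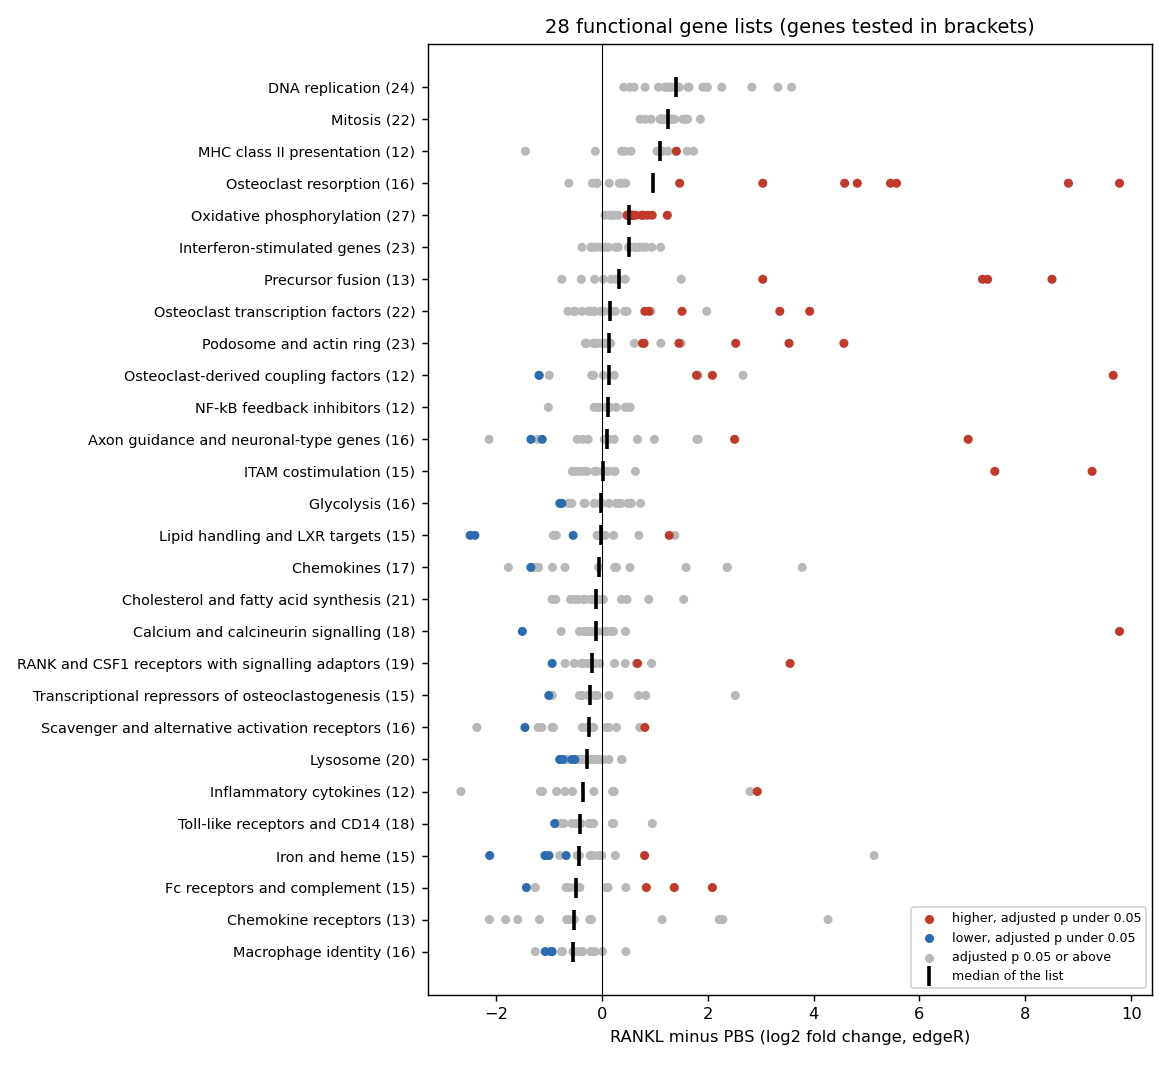
Log2 fold change of RANKL over PBS for every tested gene of 28 functional lists, ordered by the list median (black bar), with raised genes in red, lowered genes in blue and uncalled genes in grey. Resorption and fusion lists hold a few large rises, oxidative phosphorylation many small ones, and macrophage identity, iron and lysosome genes lie mostly left of 0.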

How the data were processed

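Poly(A) RNA was sequenced in paired ends, and samples were grouped by their treatment labels. The authors deposited whole-number counts of reads per gene, not normalized, and FPKM values, scaled by the authors for gene length and library. The submitters' processing notes name cutadapt 1.9, HISAT2 2.0.4, StringTie 1.3.4d and edgeR, and a human build, but all 28379 gene IDs are mouse and 99.7% are in GENCODE M21 (GRCm38), with 87.2% at the same position. Whether counting used strand is not given in the sources used here. A count of 4 occurred 2.22 times as often as the mean of 3 and 5, so low counts may not be single fragments. Genes with near-identical copies or overlapping neighbours are uncertain. The authors' own comparison columns were not used.

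Counts of the 9 libraries were fitted together in R 4.3.3 with edgeR 4.0.16 (filterByExpr, TMM, quasi-likelihood test, Benjamini-Hochberg adjusted p under 0.05), which tested 17002 genes. The standard error is the log2 fold change divided by the square root of F. An exact permutation test of 3 against 3 libraries cannot go below p = 0.1, so none was used. Alternatives were DESeq2 1.42.0, limma 3.58.1 on log2(FPKM + 1) and log2(FPKM + 0.1), voom with quality weights, other size factors and filters, the 6 libraries alone, single libraries left out and, added after seeing the data, both replicates 2 left out. Totals of the 6 libraries were nearly equal, and a floor of 3 counts covers counting error only, as reads carry no molecular identifiers.

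Replicate numbers come from the labels, which do not say what a number shares. Same-numbered PBS and RANKL libraries deviated together from their group means (r = 0.101, 0.19 and 0.139 over genes, against -0.13 to 0.00351 for other pairs), so a fit with the replicate block is given where it changes a call. Named were the 20 largest called rises outside the screen and the 20 largest falls with at least 1 FPKM in the higher group and separate FPKM groups, the 10 largest in the screen, from each of 28 functional lists the first gene and up to 4 called genes each way, and the 5 most abundant called genes each way. Genes that the rule named but that are not described are not reported here. Other genes of the lists, and genes said to be chosen after their values were seen, are given by values. The lists, 28 of functions and 11 of cell markers, and the rule were chosen with earlier results of these data known.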

Additional observations from a re-analysis of the deposited data

How the results depend on the processing

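The 400 raised and 214 lowered genes were 1050 and 656 by DESeq2, 1034 and 702 in the 6 libraries alone, 1509 and 1497 by voom with quality weights, 416 and 184 with other size factors, and 304 and 122 with no filter. They were 552 and 233 by limma on log2(FPKM + 1), and 466 and 157 with a pseudocount of 0.1. Leaving out 1 library gave 96 to 227 and 30 to 89, and leaving out replicate 2 of both groups 123 and 39. The cause of these differences was not tested. With the replicate block, which follows the pairing of replicate numbers, 538 and 287 genes were called, of which 348 and 183 were among those called without it. Of 134 called named genes, 10 lost the call with the block, 5 with other size factors, 20 with no filter, 1 with a minimum of 10 counts in 3 libraries, 15 and 23 by limma with pseudocounts of 1 and 0.1, 1 by voom, 0 of 133 by DESeq2, 0 in the 6 libraries alone, 88 without replicate 2 of both groups, and 43 to 83 with 1 library left out. None of them changed sign under any alternative. The block changed no other call of a named gene except those given beside the genes. The log2 fold change turned sign for Cd68 (-0.00011 to 0.14 with 1 library left out), Clcn7 (0.037 by limma log2(FPKM + 1), 0.037 by limma log2(FPKM + 0.1)), Mrc1 (-0.35 to 0.11 with 1 library left out, 0.031 without replicate 2 of both groups), S100a9 (-0.73 to 0.85 with 1 library left out, -0.035 with replicate block, -0.33 by voom with quality weights), Spi1 (-9.5e-05 to 0.095 with 1 library left out), Srebf1 (-0.20 to 0.11 with 1 library left out, 0.038 by limma log2(FPKM + 1), 0.040 by limma log2(FPKM + 0.1)) and Tcirg1 (-0.15 to 0.0013 with 1 library left out, 0.017 by limma log2(FPKM + 1), 0.017 by limma log2(FPKM + 0.1)), none of them called without these changes. Near-equal totals leave depth limiting mainly for genes with few counts, where a PBS group at 0 gives only a lower bound.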

Other observations

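The following 9 lowered genes, which encode enzymes against oxidants, were grouped after their values were seen, so their number is no result about such enzymes. Cat, catalase, which breaks down hydrogen peroxide, was among the 5 most abundant lowered genes, at 667, 597 and 712 FPKM with PBS and 284, 233 and 266 with RANKL (log2 fold change -1.46 ± 0.21, adjusted p = 0.00861). Gclm, which with its partner makes the precursor of glutathione, was at 97.3, 111 and 114 FPKM with PBS and 46.6, 55.1 and 47.6 with RANKL (log2 fold change -1.24 ± 0.11, adjusted p = 0.00129), and Gsr, glutathione reductase, at 72.5, 64.9 and 85.5 FPKM with PBS and 40.1, 49 and 38.8 with RANKL (log2 fold change -0.93 ± 0.14, adjusted p = 0.00952). No RANKL library reached a PBS library in any of the 3. The secreted peroxidase gene Gpx3 lay at 67.2, 60.6 and 62.6 FPKM with PBS and 21.1, 9.66 and 17.6 with RANKL (log2 fold change -2.09 ± 0.28, adjusted p = 0.00671). Of the thioredoxin system, Txnrd1 (log2 fold change -0.96, adjusted p = 0.0148), Prdx1 (log2 fold change -0.78, adjusted p = 0.0063) and Srxn1 (log2 fold change -0.89, adjusted p = 0.0259) were lower, as were the glutathione transferase genes Gstm1 (log2 fold change -1.18, adjusted p = 0.0113) and Mgst1 (log2 fold change -1.18, adjusted p = 0.0199). Dropping each library in turn, 4 of the 9 called genes named here remained called throughout. Here 5, 2 and 5 lost the call without PBS replicates 1, 2 and 3, and 4, 1 and 2 without RANKL replicates 1, 2 and 3. The upper end was an adjusted p of 0.134 (Srxn1, without PBS replicate 3).

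The KEGG list of glutathione metabolism in the deposited table held 7 lowered and 2 raised genes of 46 tested, where 1.26% and 2.35% of all genes were, and 6 lowered and 8 raised with the replicate block, against 1.69% and 3.16%. Its median log2 fold change was -0.01, with 23 genes positive and 23 negative. The KEGG list of osteoclast differentiation had 12 raised and 6 lowered genes of 114, against 2.35% and 1.26% of all genes, at a median of -0.04. Other genes with low spread between replicates were Il2rg, the common γ chain of cytokine receptors, at 22.2, 20.3 and 17.7 FPKM with PBS and 106, 114 and 102 with RANKL (log2 fold change 2.29 ± 0.11, adjusted p = 7.33e-05), and Creg1, a lysosomal glycoprotein, at 556, 565 and 605 FPKM with PBS and 269, 215 and 272 with RANKL (log2 fold change -1.31 ± 0.14, adjusted p = 0.00228), and both kept the call without any 1 library.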
